A study of Mus musculus with 8 samples.

Results

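Immunoglobulin G (IgG) is read by a small family of Fc gamma receptors, and the data collected here show how the transcripts of that family stood in the retinal pigment epithelium (RPE)/choroid of old and young mice. The 6 genes described are Fcgr1, Fcgr3 and Fcgr4, the activating receptors of the mouse, Fcer1g, the signalling chain that they share, Fcgr2b, the inhibitory receptor, and Fcgrt, the neonatal Fc receptor. They were taken as every probe set that the array annotation assigns to 1 of these genes alone, which gave 11 of 45037 probe sets and 6 of 18193 genes. The rule uses no measured value. The genes, and the gene lists read beside them, were however chosen with earlier results of these data known. Their counts of calls are therefore not those of genes picked blind to the data. RNA came from the RPE/choroid of C57BL/6 males aged 26 months (old, 4 arrays) and of C57BL/6 males aged 4 months (young, 4 arrays). Both groups were of the same strain and sex, and the labels name no treatment or engineered allele. Each array held 4 RPE/choroids pooled from 2 animals, so that the spread between arrays is one between pools and not between single mice. The values are linear Affymetrix intensities, which carry no read depth, and the number of arrays limits the precision.

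Fc gamma receptors bind the constant part of IgG once it has coated a particle or formed an immune complex. Fcgr1, which binds single IgG molecules with high affinity, and Fcgr3 and Fcgr4, which bind complexed IgG, do not signal alone: they pair with the Fcer1g chain, whose tyrosine motif is phosphorylated by Src family kinases and then recruits the kinase Syk. Fcgr2b carries an inhibitory tyrosine motif of its own and recruits the phosphatase SHIP1, the product of Inpp5d, which damps the signal of activating receptors engaged on the same cell. Fcgrt acts elsewhere, binding IgG and albumin in acidic endosomes and returning them to the cell surface. In the eye these receptors are best known on macrophages and microglia, while Fcgrt is also made by endothelial and epithelial cells.

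Fcgr2b, Fcgr4, Fcgr3 and Fcer1g lie on mouse chromosome 1, Fcgr1 on chromosome 3 and Fcgrt on chromosome 7. The 150 bases before the annotated start are shown for 4 receptor genes, so that 3 activating receptors can be set beside the inhibitory one. All 4 were called higher in old RPE/choroid. Fcer1g, the chain, was called higher too, but its window was searched without being shown. Sequences are those of RefSeq on build GRCm38.p6, read 5′ to 3′ on the strand of the gene. Capitals mark GAGGAA, the purine-rich core of sites of the myeloid factor PU.1, searched on both strands and here always on the opposite one, so that it reads as its reverse complement TTCCTC.
Fcgr1, chr3:96293970-96294119, minus strand: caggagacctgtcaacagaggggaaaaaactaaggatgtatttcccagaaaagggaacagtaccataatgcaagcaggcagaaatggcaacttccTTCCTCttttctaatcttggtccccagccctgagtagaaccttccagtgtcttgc
Fcgr3, chr1:171059404-171059553, minus strand: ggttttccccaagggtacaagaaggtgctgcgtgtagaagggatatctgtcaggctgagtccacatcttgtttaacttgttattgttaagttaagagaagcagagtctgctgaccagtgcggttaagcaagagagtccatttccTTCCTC
Fcgr4, chr1:171018776-171018925, plus strand: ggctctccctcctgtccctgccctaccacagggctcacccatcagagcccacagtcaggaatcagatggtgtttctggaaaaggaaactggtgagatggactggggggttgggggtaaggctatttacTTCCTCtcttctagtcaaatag
Fcgr2b, chr1:170976072-170976221, minus strand: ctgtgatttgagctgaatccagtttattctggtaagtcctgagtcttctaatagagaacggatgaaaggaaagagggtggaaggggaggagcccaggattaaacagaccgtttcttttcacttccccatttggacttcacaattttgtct

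The search covered 300 bases of each gene, 250 before the start and 50 after it. GAGGAA was found once in each of Fcgr1, Fcgr3 and Fcgr4, beginning 55, 6 and 22 bases before the start, and these 6 letters were not in the windows of Fcgr2b, Fcer1g and Fcgrt. Of 27025 gene promoters of that length, 28.3% hold GAGGAA. Fcgr1 and Fcgr3 also share an unbroken run of 14 bases around the GAGGAA match, TTCCTTCCTCTTTT. RefSeq lists 2 starts for Fcgr3, and the first was used. A match of letters is a description of the window, not a measured binding site. Only GAGGAA was searched, so that its absence does not show that a window lacks a site of PU.1.

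The first question was which receptors differed with age. Of the 11 probe sets, 8 were higher in old RPE/choroid at an adjusted p under 0.05 and none was lower, where 9.22% of all 45037 probe sets were higher and 8.75% lower (limma, Benjamini-Hochberg adjusted across the whole table). No member probe set was lower at an unadjusted p under 0.05 either. Among all calls 51.3% were higher in old RPE/choroid. This share was 61.5% after the median of each array was aligned and 48.5% with quantile normalization. Both settings left the 8 member calls in place. All 8 also exceeded a fold of 2 at an adjusted p under 0.01, which 0.764% of all probe sets did, and all 8 had their 4 old arrays above their 4 young ones, as did 12.3% of all probe sets. Counted by gene, with the probe set of highest mean log2 level standing for each, 5 of 6 were higher, against 11.8% of all genes, and the same 5 were past 2-fold at an adjusted p under 0.01, against 1.13%. All old arrays were above the young ones in these 5, against 15.8% of all genes. The median log2 change was 1.28 over the 11 probe sets and 1.33 over the 6 genes, against -0.02 over all probe sets. The receptors, the inhibitory one included, and their chain were thus all called in 1 direction, and Fcgrt was the gene that was not called. RPE/choroid is a mixture of cells, in which more RNA per cell and more cells of a type cannot be told apart.

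**Figure D1:**
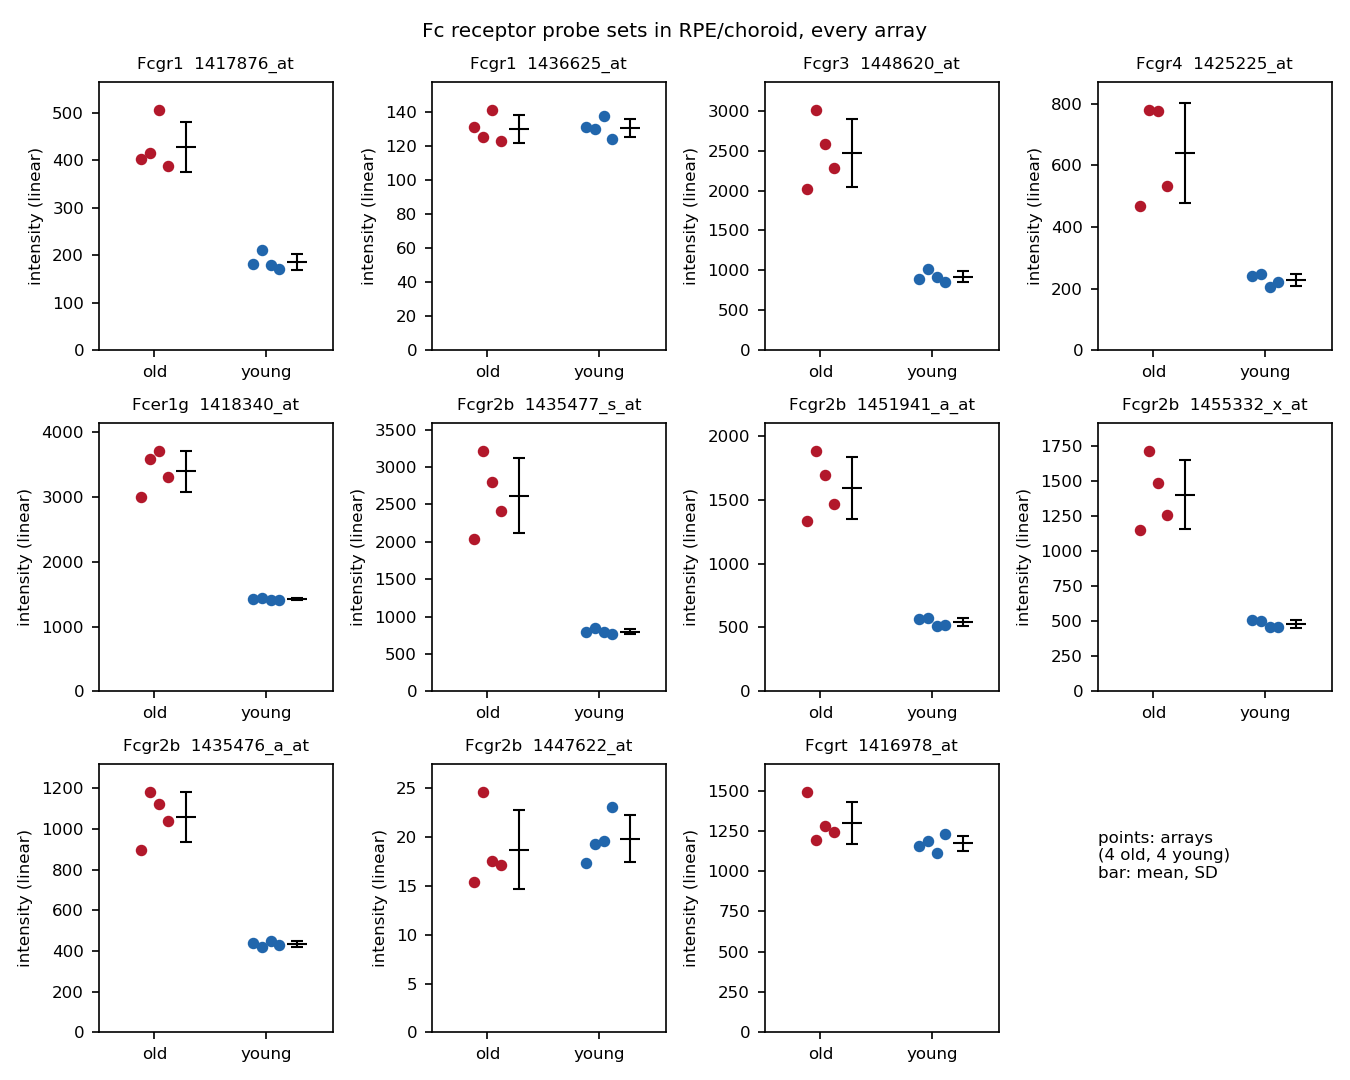
Intensity (linear, vertical axis from 0) of each of the 11 Fc receptor probe sets on the 4 old (red) and 4 young (blue) arrays, in replicate order, with the mean and SD as bars. In the 8 called probe sets the old arrays all lie above the young ones, while Fcgr1 1436625_at, Fcgr2b 1447622_at and Fcgrt 1416978_at overlap.

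Fcgr1, the high-affinity receptor, has 2 probe sets, of which 1 was called. By 1417876_at its intensity was 402, 416, 505 and 388 in old replicates 1 to 4, against 181, 211, 179 and 172 in young replicates 1 to 4. The lowest old array was thus well above the highest young one, and old replicate 3 was the highest. The mean was 428 ± 52.7 in old and 186 ± 16.9 in young RPE/choroid (SD, n = 4 each), a log2 change of 1.20 (SE 0.0960, adjusted p = 9.0e-05) or 2.30-fold. By 1436625_at the intensity was 131, 125, 141 and 123 in old replicates, against 131, 130, 138 and 124 in young ones. The ages overlapped completely on this probe set, with a log2 change of -0.01 and a 95% interval from -0.15 to 0.13 (adjusted p = 0.933). The call for Fcgr1 therefore rests on 1 of its 2 probe sets, and why they differ was not tested.

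Fcgr3, the low-affinity activating receptor, was measured by 1 probe set, 1448620_at. It gave 2014, 3003, 2584 and 2286 in old replicates 1 to 4, against 887, 1018, 916 and 858 in young replicates. No young array came near the lowest old one, and the old arrays were also farther apart from each other. The mean was 2472 ± 424 in old and 919.7 ± 69.2 in young RPE/choroid (SD, n = 4 each), a log2 change of 1.41 (SE 0.116, adjusted p = 0.000107) or 2.66-fold.

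Fcgr4, an activating receptor whose gene sits between Fcgr2b and Fcgr3 on chromosome 1, had the largest SE of the 8 called probe sets. Its probe set 1425225_at gave 467, 778, 776 and 533 in old replicates 1 to 4, against 241, 248, 204 and 222 in young replicates. Old replicates 2 and 3 were close to each other and above old replicates 1 and 4, and the highest old array was 1.66 times the lowest. All 4 were above the young arrays. The log2 change was 1.45 (SE 0.166, adjusted p = 0.000625), from 639 ± 162 in old and 229 ± 19.9 in young RPE/choroid (SD, n = 4 each). Without old replicates 2 and 3 together, an omission chosen after the values were seen, the log2 change was 1.13.

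Fcer1g, the chain that Fcgr1, Fcgr3 and Fcgr4 need in order to signal, had the smallest SE of the 8 called probe sets. By 1418340_at it was 2995, 3586, 3705 and 3307 in old replicates 1 to 4, against 1429, 1436, 1415 and 1409 in young replicates. The 4 young arrays lay within 1.02-fold of each other, and the lowest old array was far above them. The mean was 3398 ± 316 in old and 1422 ± 12.1 in young RPE/choroid (SD, n = 4 each), a log2 change of 1.25 (SE 0.0709, adjusted p = 3.3e-05). By its p-value this probe set stood at rank 23 of 45037.

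Fcgr2b, the inhibitory receptor, has 5 probe sets, of which 4 were higher in old RPE/choroid. The one with the highest mean level, 1435477_s_at, gave 2041, 3211, 2805 and 2414 in old replicates 1 to 4, against 791, 843, 794 and 771 in young replicates. The young arrays were nearly level and every old array was far above them. The mean was 2618 ± 504 in old and 800.1 ± 30.7 in young RPE/choroid (SD, n = 4 each), a log2 change of 1.69 (SE 0.123, adjusted p = 5.8e-05) or 3.23-fold.

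The other Fcgr2b probe sets gave smaller changes. Probe set 1451941_a_at read 1330, 1878, 1691 and 1464 in old replicates, against 564, 574, 510 and 521 in young ones, a log2 change of 1.54 (SE 0.105). Probe set 1455332_x_at read 1152, 1710, 1482 and 1260 in old replicates, against 507, 505, 461 and 456 in young ones, a log2 change of 1.52 (SE 0.115). Probe set 1435476_a_at read 899, 1181, 1122 and 1038 in old replicates, against 442, 418, 450 and 429 in young ones, a log2 change of 1.28 (SE 0.0840). None of these 3 overlapped between the ages, and their adjusted p ran between 3.7e-05 and 6.9e-05. The suffix _a_at names probes common to several transcripts of a gene, _s_at probes common to transcripts that may belong to several genes, and _x_at probes of which some resemble other sequences.

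The fifth Fcgr2b probe set, 1447622_at, was dim. It gave 15.4, 24.6, 17.5 and 17.2 in old replicates, against 17.3, 19.3, 19.6 and 23 in young ones, and only 3.44% of probe sets had a lower mean. The ages overlapped (log2 change -0.10, 95% interval from -0.42 to 0.22, adjusted p = 0.661). It was the one member probe set that fell below a mean log2 level of 6, the filter on low values tried as an alternative, and the other 10 passed.

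The change also differed among the bright Fcgr2b probe sets themselves. Per array, 1435476_a_at minus 1435477_s_at was -1.18, -1.44, -1.32 and -1.22 (log2) in old replicates, against -0.84, -1.01, -0.82 and -0.85 in young ones. The groups did not overlap, so 1435476_a_at differed less with age, by a log2 difference of -0.41 (exact permutation test, two-sided, p = 0.0286, the smallest that 4 against 4 arrays can give, and 0.0381 adjusted over the 4 probe sets set against 1435477_s_at). The same difference was -0.17 for 1455332_x_at (exact p = 0.0286, adjusted 0.0381) and -0.15 for 1451941_a_at (exact p = 0.0571, adjusted 0.0571).

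Fcgrt, which recycles IgG instead of signalling, was not called. Its probe set 1416978_at gave 1489, 1194, 1277 and 1242 in old replicates, against 1157, 1186, 1116 and 1231 in young ones. Old replicate 1 was the highest and old replicate 2 lay within the young range. The mean was 1301 ± 130 in old and 1172 ± 48.6 in young RPE/choroid (SD, n = 4 each). The log2 change of 0.15 had a 95% interval from -0.02 to 0.32 (adjusted p = 0.212), and the exact two-sided permutation test gave p = 0.0571.

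**Figure D2:**
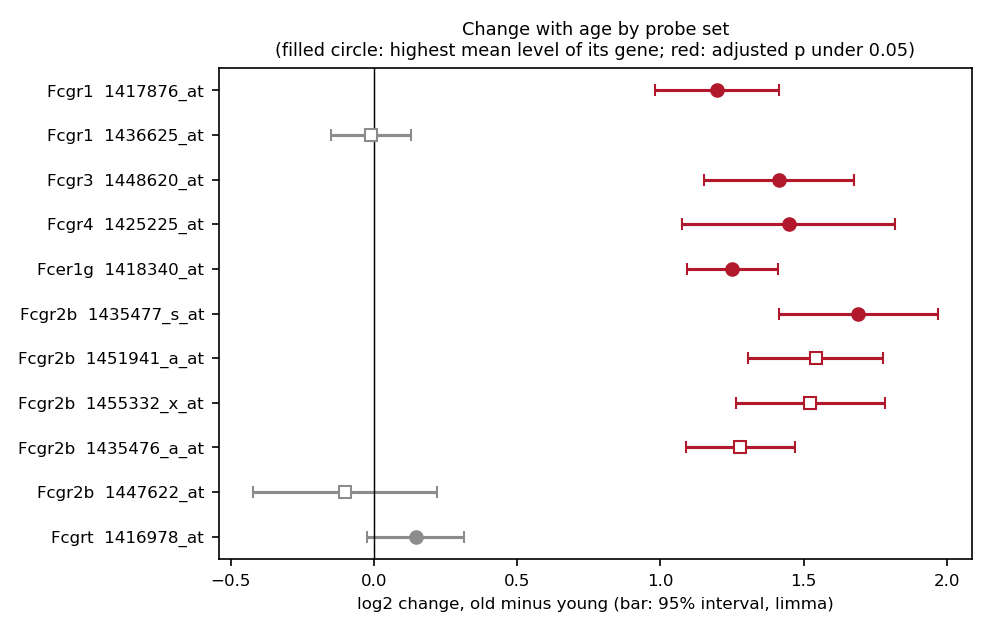
Log2 change, old minus young, of each Fc receptor probe set (horizontal axis) with its 95% interval from limma. Filled circles mark the probe set of highest mean level of its gene, and red marks an adjusted p under 0.05; the 8 red points lie between 1.20 and 1.69, and the other 3 have intervals that include 0.

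The second question was whether the activating and inhibitory receptors changed by the same amount. For each array the log2 value of Fcgr2b was subtracted from that of each activating gene, and the 4 old were compared with the 4 young differences. Intensities of different probe sets do not measure which transcript is more abundant, so only the shift of such a difference with age is read here. Against 1435477_s_at all 4 shifts, old minus young, were below 0, and 3 of the 4 pairs passed the test.

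For Fcgr3 minus Fcgr2b the log2 difference was -0.02, -0.10, -0.12 and -0.08 in old replicates, against 0.17, 0.27, 0.21 and 0.15 in young ones. The groups did not overlap, and the shift was -0.28 (SE 0.0339, exact permutation test, two-sided, p = 0.0286, 0.0381 adjusted over 4 pairs). For Fcer1g minus Fcgr2b it was 0.55, 0.16, 0.40 and 0.45 in old replicates, against 0.85, 0.77, 0.83 and 0.87 in young ones. Old replicate 2 was the lowest, and the shift was -0.44 (SE 0.0867, exact p = 0.0286, adjusted 0.0381).

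For Fcgr1 minus Fcgr2b the log2 difference was -2.34, -2.95, -2.47 and -2.64 in old replicates, against -2.12, -2.0, -2.15 and -2.16 in young ones. Again every old array was below every young one, with a shift of -0.49 (SE 0.136, exact p = 0.0286, adjusted 0.0381). For Fcgr4 minus Fcgr2b it was -2.13, -2.05, -1.85 and -2.18 in old replicates, against -1.71, -1.76, -1.96 and -1.80 in young ones. Old replicate 3 lay within the young range, and the shift of -0.24 (SE 0.0891) did not pass (exact p = 0.0571, adjusted 0.0571).

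These shifts depend on the Fcgr2b probe set. Against 1451941_a_at they were -0.34 for Fcgr1, -0.13 for Fcgr3, -0.09 for Fcgr4 and -0.29 for Fcer1g, and against 1455332_x_at they were -0.32, -0.11, -0.08 and -0.27 in the same order of genes. With either of these probe sets 0 of 4 pairs passed after adjustment, although 2 of 4 did not overlap between the ages (exact p = 0.0286 before adjustment and 0.0571 after it, for Fcgr1 and Fcer1g). Against 1435476_a_at the shifts were -0.08, 0.13, 0.17 and -0.03, all overlapping and all with an adjusted exact p of 0.543. Among single Fcgr2b probe sets only the dim 1447622_at gave shifts that were higher in old RPE/choroid and passed, between 1.30 and 1.55. By this test a larger change of Fcgr2b passed for 3 of 4 pairs, with 1 of its 4 bright probe sets. Where only 2 of 4 pairs reach the smallest exact p of 0.0286, the adjusted p cannot go below 0.0571. Missing the threshold with 1451941_a_at and 1455332_x_at therefore does not show that the shift was absent for Fcgr1 and Fcer1g. The 4 bright probe sets together do not fix the balance.

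**Figure D3:**
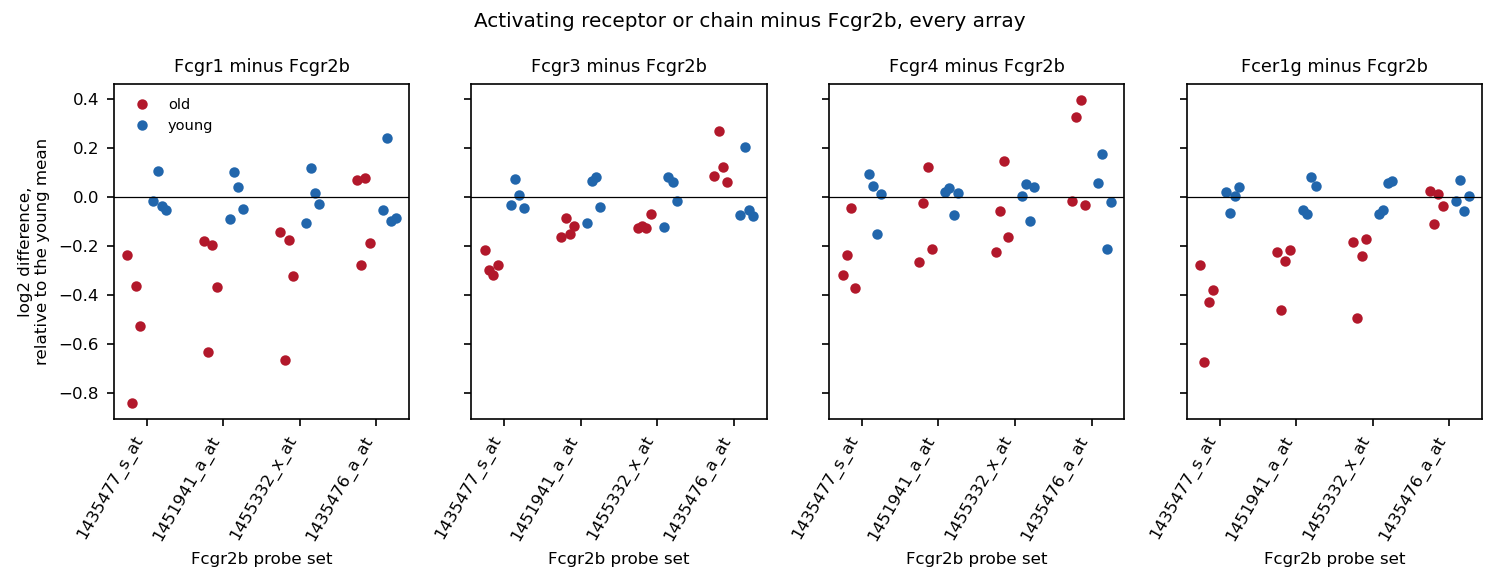
Log2 difference between an activating gene and Fcgr2b on each array, shown relative to the young mean, for the 4 bright Fcgr2b probe sets (horizontal axis), old in red to the left of young in blue. Against 1435477_s_at the old arrays lie below the young arrays for Fcgr1, Fcgr3 and Fcer1g, and against 1435476_a_at the ages overlap for all 4 genes.

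Of the 11 probe sets, 7 ordered the old arrays alike. Among the old arrays, Fcgr3, Fcgr4 and all 5 Fcgr2b probe sets ran in the order replicate 2, 3, 4 and 1 from high to low. Fcer1g had replicate 3 above replicate 2 but the same lower pair, both Fcgr1 probe sets had replicate 3 highest and replicate 4 lowest, and Fcgrt had replicate 1 highest and replicate 2 lowest. With the mean of each age subtracted, Pearson's r over the 8 arrays was 0.97 between Fcgr3 and Fcgr2b 1435477_s_at, 0.80 between Fcgr3 and Fcgr2b 1435476_a_at and 0.93 between Fcgr4 and Fcer1g. Fcgr1 1417876_at followed the others less closely, at 0.24 to 0.64. These correlations are a description, since all probe sets were read from the same 8 arrays. Fcgr3 and Fcgr2b are close relatives in sequence outside their signalling parts, and reading of the transcript of one by the probes of the other was not tested.

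Old replicate 2, the highest array for Fcgr3, Fcgr4 and Fcgr2b, stood apart in genes of neutrophils. The summed intensity of 9 neutrophil markers reached 18124 in old replicate 2, with 1576 to 2836 on the remaining old arrays, against 1196 to 1474 on young arrays. S100a8, a calcium-binding protein abundant in neutrophils, reached 7828 there and 346 to 888 on the remaining old arrays, against 110 to 220.1 on young arrays. S100a8 and S100a9 (7062) were the brightest of the 9 on that array. Among the old arrays, Ngp, Camp, Ltf, Mmp8 and Cxcr2 were also highest there, Mpo by a narrow margin, while Elane was lowest. With age 2 of the 9 were called higher (S100a8 and Camp) and 1 lower (Cxcr2), against 11.8% higher and 9.56% lower over all genes. Without old replicate 2 the log2 change was 1.31 for Fcgr3, 1.34 for Fcgr4, 1.59 for Fcgr2b 1435477_s_at, 1.22 for Fcer1g and 1.21 for Fcgr1 1417876_at, and 8 of the 11 probe sets were called, as with it.

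Markers of other cells were read beside the receptors, against shares of 11.8% higher and 9.56% lower over all genes. Of 5 general leukocyte markers 4 were higher in old RPE/choroid, and their summed intensity was 8252 to 10272 in old against 3992 to 4703 in young arrays. Of 11 macrophage markers 7 were higher and none lower (1 lower at an unadjusted p under 0.05), summing to 30266 to 31657 in old against 20667 to 23596 in young arrays. One of 6 microglia markers was higher (P2ry12), 1 of 4 monocyte markers (Chil3, whose call was lost when any array but old replicate 1 was left out), 2 of 7 natural killer cell markers (Nkg7 and Klrd1) and 4 of 6 mast cell markers, with 1 of the 6 (Kit) lower. The counts of 1 of 6 and 1 of 4 are no more than a gene away from the share over all genes. Of 6 dendritic cell markers none was called by limma, with 1 higher and 2 lower at an unadjusted p under 0.05. Rpe65, the retinoid isomerase that defines RPE, averaged 11066 ± 254 in old and 11578 ± 543 in young RPE/choroid (SD, n = 4 each), and rod photoreceptor markers were also present, summing to 5888 to 15610 in old against 7478 to 15946 in young arrays. Of 10 RPE markers 6 were lower, with sums of 76407 to 84649 in old against 89690 to 91500 in young arrays, and of 8 endothelial markers 7 were lower. Of 6 markers of Mueller glia, the supporting glia of the retina, none was higher and 3 were lower (4 at an unadjusted p under 0.05), namely Fabp7 (log2 change -1.62), Slc1a3 (-1.41) and Gfap (-0.98). Their part in the result was not tested.

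Ptprc, the CD45 phosphatase carried by all leukocytes, averaged 1851 ± 191 in old and 752 ± 57.7 in young RPE/choroid (SD, n = 4 each), a log2 change of 1.30 (adjusted p = 3.7e-05). Set against Ptprc on the same array, Fcer1g shifted by -0.04 with age (0.79 to 0.97 in old against 0.79 to 1.02 in young arrays), Fcgr1 by -0.10, Fcgr3 by 0.12 and Fcgr4 by 0.15. These 4 ratios overlapped between the ages. Fcgr2b 1435477_s_at minus Ptprc shifted by 0.39 with no overlap, although Fcgr2b 1435476_a_at itself changed by 1.28, close to the 1.30 of Ptprc. Fcgrt minus Ptprc shifted by -1.15 with no overlap.

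Against macrophage genes the shift depended on the gene chosen. The log2 change was 1.47 for Cd68, a lysosomal protein of macrophages, and 0.90 for Adgre1, the F4/80 antigen. For Csf1r, the receptor of macrophage growth factor, it was -0.04 (adjusted p = 0.691). Csf1r averaged 4869 ± 188 in old and 5003 ± 277 in young RPE/choroid. Each of these macrophage genes was read by its brightest probe set, and dimmer ones were not looked up. The flat level of Csf1r and the shifts against it therefore hold for that probe set alone. Whether the receptors rose beyond the macrophage content was not tested. Against Csf1r the shifts of Fcgr1, Fcgr2b, Fcgr3, Fcgr4 and Fcer1g were 1.24 to 1.73, all without overlap, and that of Fcgrt was 0.18 with overlap. Against Adgre1 they were 0.30 to 0.79 without overlap, and -0.75 for Fcgrt. Against Cd68 the shift of Fcgr1 was -0.28 without overlap, those of Fcer1g (-0.22), Fcgr3 (-0.06), Fcgr4 (-0.03) and Fcgr2b (0.22) overlapped, and that of Fcgrt was -1.33.

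**Figure D4:**
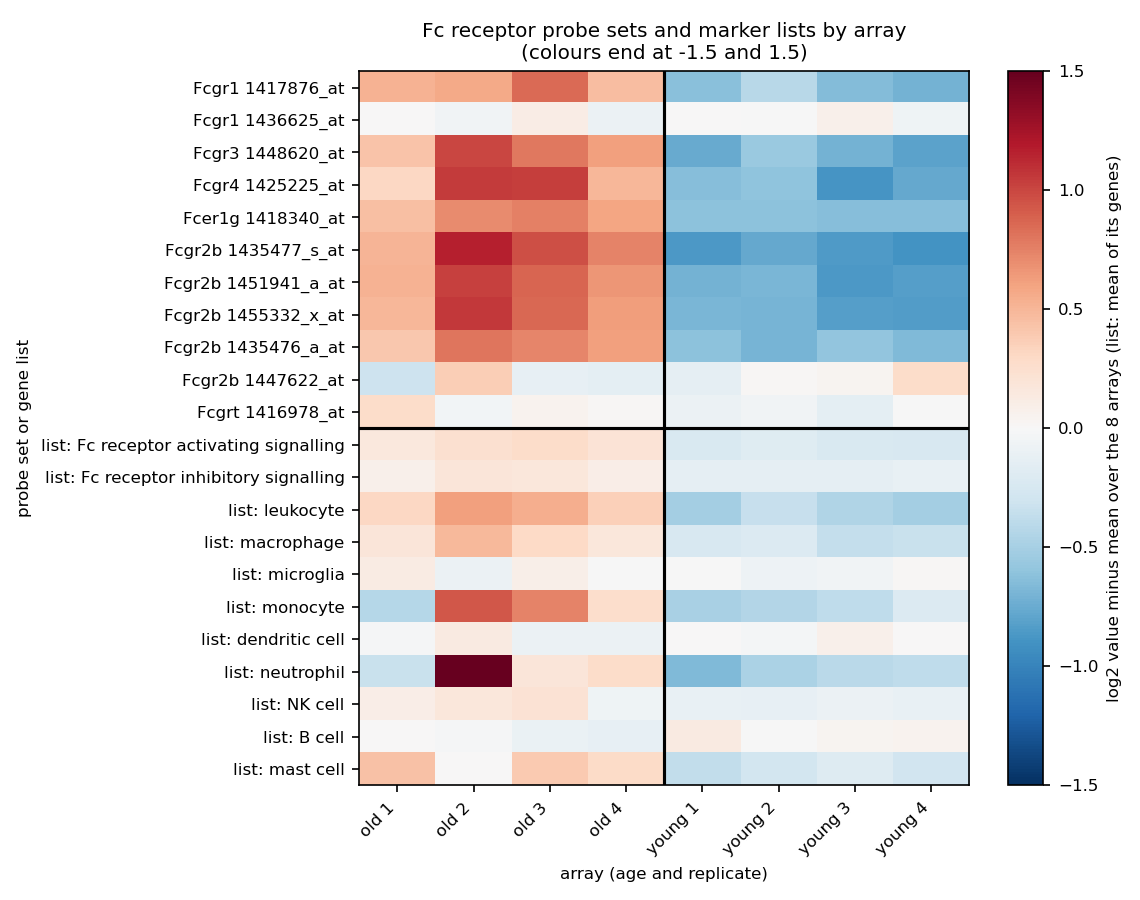
Log2 value minus its mean over the 8 arrays (colour) for each Fc receptor probe set and, below the line, for the mean of each signalling or cell marker list, by array, with old arrays to the left of young ones. Old replicate 2 is the darkest array for neutrophil markers, at 1.80 beyond the end of the colour scale, and also for Fcgr3 and Fcgr2b.

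The signalling genes that Fc receptors use were then counted. Of 26 measured genes of the activating route, 17 were higher and 0 lower (1 lower, Fyn, at an unadjusted p under 0.05 or with quantile normalization), with a median log2 change of 0.40 (range -0.14 to 1.46), against a median of -0.02 over all genes, of which 11.8% were higher and 9.56% lower. Sh3bp2, an adaptor that binds Syk, averaged 309 ± 54.4 in old and 111 ± 10.9 in young RPE/choroid (SD, n = 4 each), a log2 change of 1.46. Syk itself, the kinase recruited by Fcer1g, gave 354, 452, 486 and 446 in old replicates, against 180, 198, 188 and 174 in young ones, a log2 change of 1.22 (adjusted p = 8.6e-05). No old array overlapped with a young one for Syk. Of the 17 calls, that of Lat was lost in limma without old replicate 2 or 3 or without young replicate 1, 2 or 4 (adjusted p between 0.0582 and 0.0803). That of Gab2 was lost without young replicate 3 (adjusted p = 0.0561).

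The other genes of this route past 2-fold were Pik3r5, a regulatory subunit of phosphoinositide 3-kinase gamma (1.37), and Rac2, the Rac GTPase of blood cells (1.19). The 9 that did not pass were Fyn, Lcp2, Plcg1, Vav1, Rac1, Cdc42, Pik3cd, Pik3cb and Pik3r1, with log2 changes of -0.14 to 0.01. Vav1, an exchange factor for Rac in blood cells, was at -0.14 (adjusted p = 0.385) and Rac1, the Rac found in most cells, at -0.04 (adjusted p = 0.573). These values are those of the brightest probe set of each gene, and 4 of the 9 genes (Lcp2, Vav1, Rac1 and Pik3cd) had a dimmer probe set that was higher, which was looked up after the values were seen. For Vav1 the dimmer 1422932_a_at averaged 122 ± 4.79 in old and 53.4 ± 4.5 in young RPE/choroid (SD, n = 4 each), a log2 change of 1.19 (adjusted p = 3.34e-05), and for Lcp2, an adaptor of blood cells, 1418641_at had a log2 change of 0.95 (adjusted p = 0.000527). Pik3cd also had a dimmer probe set that was lower (1458321_at, -0.50).

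On the inhibitory route 4 of 12 genes were higher and 0 lower by limma, with or without adjustment. Over all genes 11.8% were higher and 9.56% lower after adjustment. The median log2 change of the 12 genes was 0.11. Sla, an adaptor that lowers receptor levels, averaged 376 ± 78.0 in old and 143 ± 3.64 in young RPE/choroid, a log2 change of 1.37 (adjusted p = 0.000206). Inpp5d, which encodes SHIP1, the phosphatase that Fcgr2b recruits, gave 504, 652, 619 and 519 in old replicates, against 354, 358, 353 and 344 in young ones. Its old arrays were all above its young ones and its log2 change was 0.69 (adjusted p = 0.00098). Cbl, a ubiquitin ligase, was at 0.44 and Dok1, an adaptor that docks on Fc receptor complexes, at 0.27. Without young replicate 3 Dok1 did not pass (adjusted p = 0.0511). Ptpn6, which encodes the phosphatase SHP-1, was at 0.12 by an _x_at probe set and did not pass (adjusted p = 0.185). These values too are those of the brightest probe set of each gene. Dimmer probe sets of the 8 inhibitory genes not called were not looked up, unlike those of the activating route. The counts of the 2 routes are therefore not on an equal footing.

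**Figure D5:**
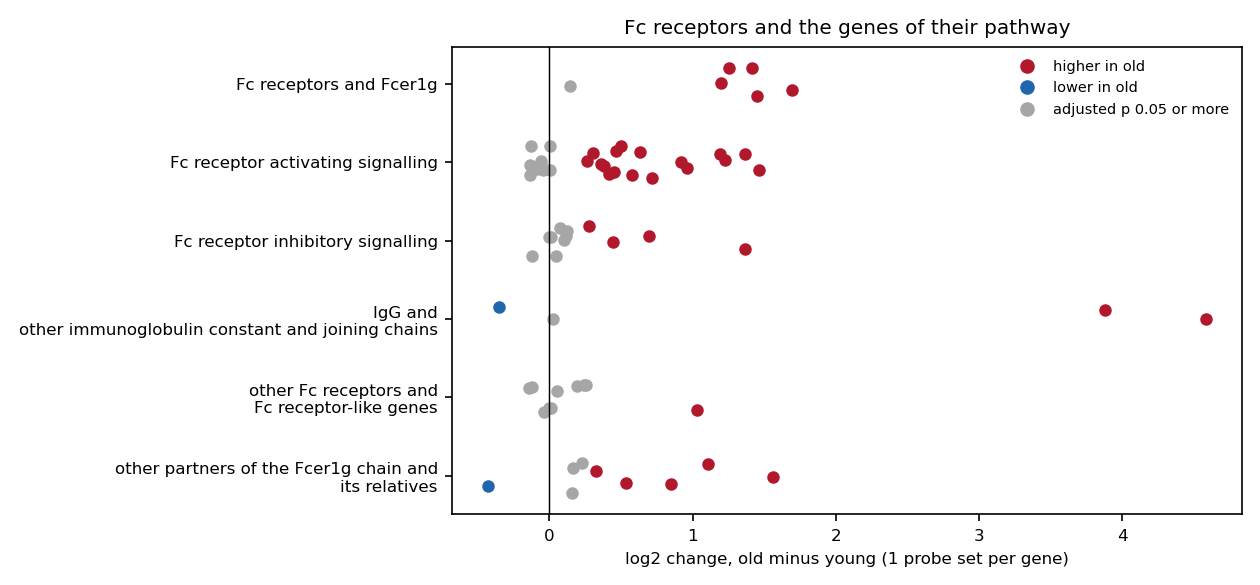
Log2 change, old minus young (horizontal axis), of the 6 Fc receptor genes and of the measured genes of 5 lists, 1 probe set per gene, coloured by the call in limma. Of the genes shown, Igha and Jchain lie farthest to the right at 4.58 and 3.88, and 17 of 26 activating signalling genes and 4 of 12 inhibitory ones are higher in old RPE/choroid.

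Few ligand genes could be read. Of 12 immunoglobulin constant and joining chain genes 4 were measured by a probe set of their own, and Ighg3 was the only IgG heavy chain among them. Ighg3 averaged 348 ± 28.7 in old and 445 ± 30.3 in young RPE/choroid (SD, n = 4 each), a log2 change of -0.36 (adjusted p = 0.0149). Igha, the heavy chain of IgA, gave 1354, 4252, 1976 and 2026 in old replicates, against 100.3, 70.2, 67.8 and 146 in young ones, a log2 change of 4.58 (adjusted p = 6.9e-05) by an _x_at probe set. Old replicate 2 was the highest, and leaving out any 1 array gave 4.27 to 4.82. Jchain, which joins IgA and IgM into polymers, was at 3.88. Ighm, the heavy chain of IgM, was at 0.03 (adjusted p = 0.785), likewise by an _x_at probe set. Other probe sets of these genes were not looked up. Of 6 plasma cell markers 1 was higher (Jchain itself) and 1 lower (Prdm1), and of 5 B cell markers 1 was higher (Cd22) and 1 lower (Pax5). Over all genes 11.8% were higher and 9.56% lower, so that these counts are near that share. The part of these cells in these levels was not tested. Only transcripts were read, and IgG protein was not measured on the arrays.

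Other Fc receptors and Fc receptor-like genes mostly did not pass. Of 10 measured, 1 was higher and 0 lower, against 11.8% higher and 9.56% lower over all genes, so that the count is near the share over all genes (3 higher and 0 lower by limma at an unadjusted p under 0.05), with a median log2 change of 0.03. The one called was Fcer1a, the IgE-binding chain that also needs Fcer1g, at 110 ± 24.2 in old and 53.2 ± 9.0 in young RPE/choroid (SD, n = 4 each), a log2 change of 1.03 (adjusted p = 0.00358). Fcer1a is a gene of mast cells, and the mast cell markers Cpa3 and Cma1 also had log2 changes past 1 (1.70 and 1.42). Kit, the growth factor receptor of mast cells, was lower (-0.58, adjusted p = 0.0118), and Hdc, which makes histamine, did not pass (0.0994). The part of mast cells in Fcer1a was not tested. Ms4a2, the beta chain of the same IgE receptor, was at 0.19 (adjusted p = 0.133).

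Among 9 measured partners and relatives of the Fcer1g chain 5 were higher and 1 lower, against 11.8% higher and 9.56% lower over all genes. Clec4d, a C-type lectin that signals through Fcer1g, averaged 3684 ± 733 in old and 1240 ± 146 in young RPE/choroid (SD, n = 4 each), a log2 change of 1.56. Tyrobp, the DAP12 chain, a relative of Fcer1g with the same kind of tyrosine motif, averaged 6634 ± 274 in old and 3087 ± 194 in young RPE/choroid, a log2 change of 1.10. Clec4n, the lectin dectin-2, was at 0.85, Hcst, the DAP10 adaptor, at 0.53 and Gp6, the platelet collagen receptor, at 0.33. Gp6 did not pass without old replicate 2 or 3 or without young replicate 2, 3 or 4 (adjusted p between 0.052 and 0.0654). Cd247, the zeta chain of the T cell receptor, fell to 101 ± 4.34 in old RPE/choroid, against 136 ± 5.90 in young (log2 change -0.43, adjusted p = 0.00136).

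The cluster on chromosome 1 allowed a comparison with unrelated neighbours. Between Fcgr3 and Fcer1g the annotation places 7 genes, of which 6 were measured. None of the 6 was higher in limma, with or without adjustment, and 2 were lower, Pcp4l1 (log2 change -0.44, adjusted p = 0.00235) and Tomm40l (-0.29, adjusted p = 0.0218). Over all genes 11.8% were higher and 9.56% lower, so that finding none higher among 6 is near that share. The other 4, Cfap126, Sdhc, Nr1i3 and Apoa2, had log2 changes of -0.13 to -0.06 and did not pass. The calls of higher level in this stretch thus stood at its ends, in Fcgr3 and Fcer1g.

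Over the 8 arrays, the genes whose log2 values ran most like those of Fcer1g were C1qc, Arhgap30, Rnase4, Ms4a6b and Man2b1 (Pearson's r of 0.997 to 0.998 over 8 arrays, among 9090 genes of above-median level). With the mean of each age removed, they were Akirin1, Xpa, Hint3, Mzt2 and Fkbp5 (r of 0.971 to 0.983). No gene was in both sets of 5. All of these values were read from the same 8 arrays, and they are given as a description.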

How the data were processed

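RPE/choroid RNA from 4 old and 4 young samples was hybridized to Affymetrix mouse arrays, 1 array per sample, and groups were taken from the sample labels. The deposited values are linear intensities, which the authors had normalized, without the table saying how. Their methods give RMA, the invariant set of Dchip and BRB-ArrayTools as routes. Array medians were 128.6 to 135.4, and arrays of one age correlated at 0.9915 or more. Before log2, the 8 to 14 values per array below 1 were raised to 1. limma 3.58.1 in R 4.3.3 (lmFit and eBayes, age alone) was fitted to 45037 probe sets, after 64 controls of 45101 were left out, with Benjamini-Hochberg adjustment over all. A probe set was used for a gene where the array annotation names 1 gene (34945 probe sets, against 932 with several and 9160 with none). Gene lists were read by the probe set of highest mean log2 per gene.

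Shifts between probe sets were tested with an exact permutation test over the 70 splits of the arrays (scipy 1.17.1). On simulated data for the old against young comparison over 45037 probe sets, limma recovered 63 of 100 probe sets changed by 0.5 (log2) and 96 of 100 changed by 1, with 8 false calls among 44837. The genes named are the members, up to 4 genes of each list with the largest change past the threshold or the 2 with the smallest p, members of counts of 5 or fewer, 4 side genes and the 5 genes most like Fcer1g by each measure. Promoters came from RefSeq. Alternatives were quantile normalization, median centring, another floor, a low-level filter, trend and robust eBayes, array weights, a replicate block, other probe sets, and leaving out arrays. The members and lists were chosen with earlier results of these data known. The samples of a group are separate pools of animals.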

Additional observations from a re-analysis of the deposited data

Results flagged for a closer look

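Of 144 groups of 4 arrays examined (each probe set named, in each age), 7 held an array whose gap to its nearest neighbour, as a share of the whole range of the group, was above the 95% critical value of Dixon's test for 4 samples. The shares were taken on log2 values, while the levels given below are linear intensities. Chance alone gives about 1 in 20 such groups, and none of the 7 was an Fc receptor probe set. In old RPE/choroid the share was 0.933 for Jchain, where replicate 2 was at 1608 and the others at 669 to 710.2, and 0.878 for Cxcr2, a chemokine receptor of neutrophils, where replicate 2 was at 174 and the others at 140.1 to 144. In young RPE/choroid replicate 2 stood apart for Ighg3 (0.871, at 400.4 against 455 to 463 in the others), Cd53, a leukocyte tetraspanin (0.831, at 1307 against 1037 to 1078), and Trem2, a macrophage receptor that signals through Tyrobp (0.872, at 531 against 398 to 413). Markers of neural retina were listed there as well, namely Sag, the rod arrestin (0.858, replicate 4 at 2493 against 4716 to 5242), and Fabp7, a lipid carrier made by Müller glia (0.952, replicate 1 at 491 against 369 to 374).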

How the results depend on the processing

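The 8 Fc receptor calls and the 3 probe sets without a call kept their side of the threshold and, where called, their direction under each alternative that had a test for them. Leaving out old replicates 2 and 3 together gave values with no test, and Fcgr2b 1447622_at was not among the probe sets kept by the low-level filter. The lowest and highest log2 change over the settings were 1.09 and 1.26 for Fcgr1 1417876_at, 1.23 and 1.51 for Fcgr3, 1.13 and 1.59 for Fcgr4, 1.15 and 1.31 for Fcer1g, 1.47 and 1.80 for Fcgr2b 1435477_s_at, and 0.08 and 0.22 for Fcgrt. When 1 array was left out at a time, 8 member probe sets were higher and 0 lower in each case. Over all probe sets, 2827 to 4284 were then higher and 2135 to 4030 lower, against 4154 and 3939 with all arrays. The lower count fell by over 1.5 times to 2135 without old replicate 3, and, with a young array left out, to 2398 (replicate 1), 2183 (replicate 3) and 2523 (replicate 4). The activating signalling genes gained 1 lower call (Fyn) with quantile normalization, and the other Fc receptors had 2 higher calls (Trim21 added) with trend and robust eBayes. Of the other counts, 204 were within 1.5 times of the count reported.

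The balance against Fcgr2b depended on the probe sets. With 1451941_a_at the shifts no longer passed for Fcgr1 (-0.34), Fcgr3 (-0.13) and Fcer1g (-0.29), nor with 1455332_x_at (-0.32, -0.11 and -0.27). With 1435476_a_at Fcgr1 (-0.0805) and Fcer1g (-0.0276) did not pass and Fcgr3 turned to 0.13. With the dim 1447622_at the shifts turned to 1.30 for Fcgr1, 1.51 for Fcgr3 and 1.35 for Fcer1g and were 1.55 for Fcgr4. With the mean over the 4 bright Fcgr2b probe sets they were -0.31 for Fcgr1, -0.10 for Fcgr3 and -0.26 for Fcer1g, and did not pass. These choices of Fcgr2b probe set were made after the data were seen. With the mean over all probe sets of each gene, which takes in the dim one, Fcgr3 turned to 0.23, Fcer1g to 0.0647 and Fcgr4 to 0.26, of which Fcgr3 and Fcgr4 passed. The shift of Fcgr1 did not turn in that setting and stayed below 0. Leaving out 1 array gave -0.58 to -0.38 for Fcgr1, -0.30 to -0.25 for Fcgr3, -0.31 to -0.20 for Fcgr4 and -0.49 to -0.36 for Fcer1g, where 3 against 4 arrays cannot go below p = 0.0571 in the exact permutation test.

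The replicate number did not pair the samples: after the age means were subtracted, old and young arrays sharing a number correlated at 0.0971, 0.019, 0.0218 and 0.0427 for numbers 1 to 4, and only for number 1 was the shared number the best match. With the replicate number as a block, 3257 probe sets were higher and 2930 lower, the 8 member probe sets were still called, and Gp6 (adjusted p = 0.056) was the list gene in the pathway lists that was lost. In the paired form of the balance test 4 pairs cannot go below p = 0.125 (exact), so it has no call to give. The array values carry no read depth, and the precision is that of 4 pools per age.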
